A study of Mus musculus with 8 samples.

Results

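The genes of gp130 signaling measured here were the receptor chains Il6st, Osmr, Lifr and Cntfr, the growth hormone receptor Ghr, the transcription factor Stat3 and the feedback inhibitors Socs2, Socs3, Socs5 and Socs6. They were chosen by name: every probe set whose only annotated gene symbol was one of these 10 was taken, which gave 10 of the 18194 genes named on the array and 33 of its 45101 probe sets. A probe set is a group of short oligonucleotides that together read 1 transcript region, and each is reported by itself, because probe sets of the same gene did not always move together. Neural stem cells (NSCs) derived from mouse embryonic stem cells were grown in EGF and FGF2, and total RNA was taken from 4 cultures that were not irradiated (non-irr) and from 4 cultures 7 days after 10 Gy of X-rays (irr), which were not passaged in between. The labels call the arrays of each group biological quadruplicates, and name neither the NSC line nor a gene deletion or added agent. Each RNA was hybridized to 1 Affymetrix GeneChip mouse genome array.

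Cytokines of the IL-6 type signal through gp130, the shared receptor chain that Il6st encodes. LIF pairs gp130 with the LIF receptor, oncostatin M pairs it with the oncostatin M receptor, and CNTF uses a further, non-signaling subunit encoded by Cntfr. The receptors carry JAK kinases, which phosphorylate STAT3, and STAT3 in turn switches on SOCS genes, whose products inhibit the receptors and kinases. In neural stem cells this pathway is known for driving astrocytic genes such as Gfap. Growth hormone receptor also signals through a JAK kinase, mainly to STAT5, and SOCS2 is its best known feedback inhibitor.

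In irr NSCs the transcripts of Ghr and Socs3 rose by 4.74-fold and 3.66-fold on their brightest probe sets and those of gp130 and Socs5 by 2.20-fold and 2.07-fold. Osmr was read over an intensity of 100 on irr arrays alone, and Lifr was called higher on none of its probe sets. Of the 33 probe sets, 20 passed a filter of an intensity over 100 (6.64 on the log2 scale) on at least 1 array and were tested, and 13 did not. By limma with Benjamini-Hochberg adjustment over all 21919 probe sets that passed, at an adjusted p under 0.05, 13 of the 20 were called higher, 3 were called lower and 4 were not called. Calls were common on these arrays: 75.1% of all probe sets tested were called, 38.0% higher and 37.1% lower. A rise of at least 2-fold was called for 10 of the 20, against 8.47% of all probe sets tested, and a fall of that size was called for 0 of them, against 5.98%. The median log2 fold change was 0.76 over the 20 and -0.01 over all probe sets tested. Because the 10 genes were chosen with earlier results of these data known, these comparisons describe the genes and are no independent test. Of the 20, 3 passed the filter through the irr arrays alone (Osmr 1418674_at, Socs2 1449109_at and Socs3 1456212_x_at), so their direction was bound to that choice, and the size of their fold rests on non-irr signals under the filter. Without them, 10 of 17 were called higher, 7 of them at 2-fold or more, 3 were lower and the median was 0.49.

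**Figure D1:**
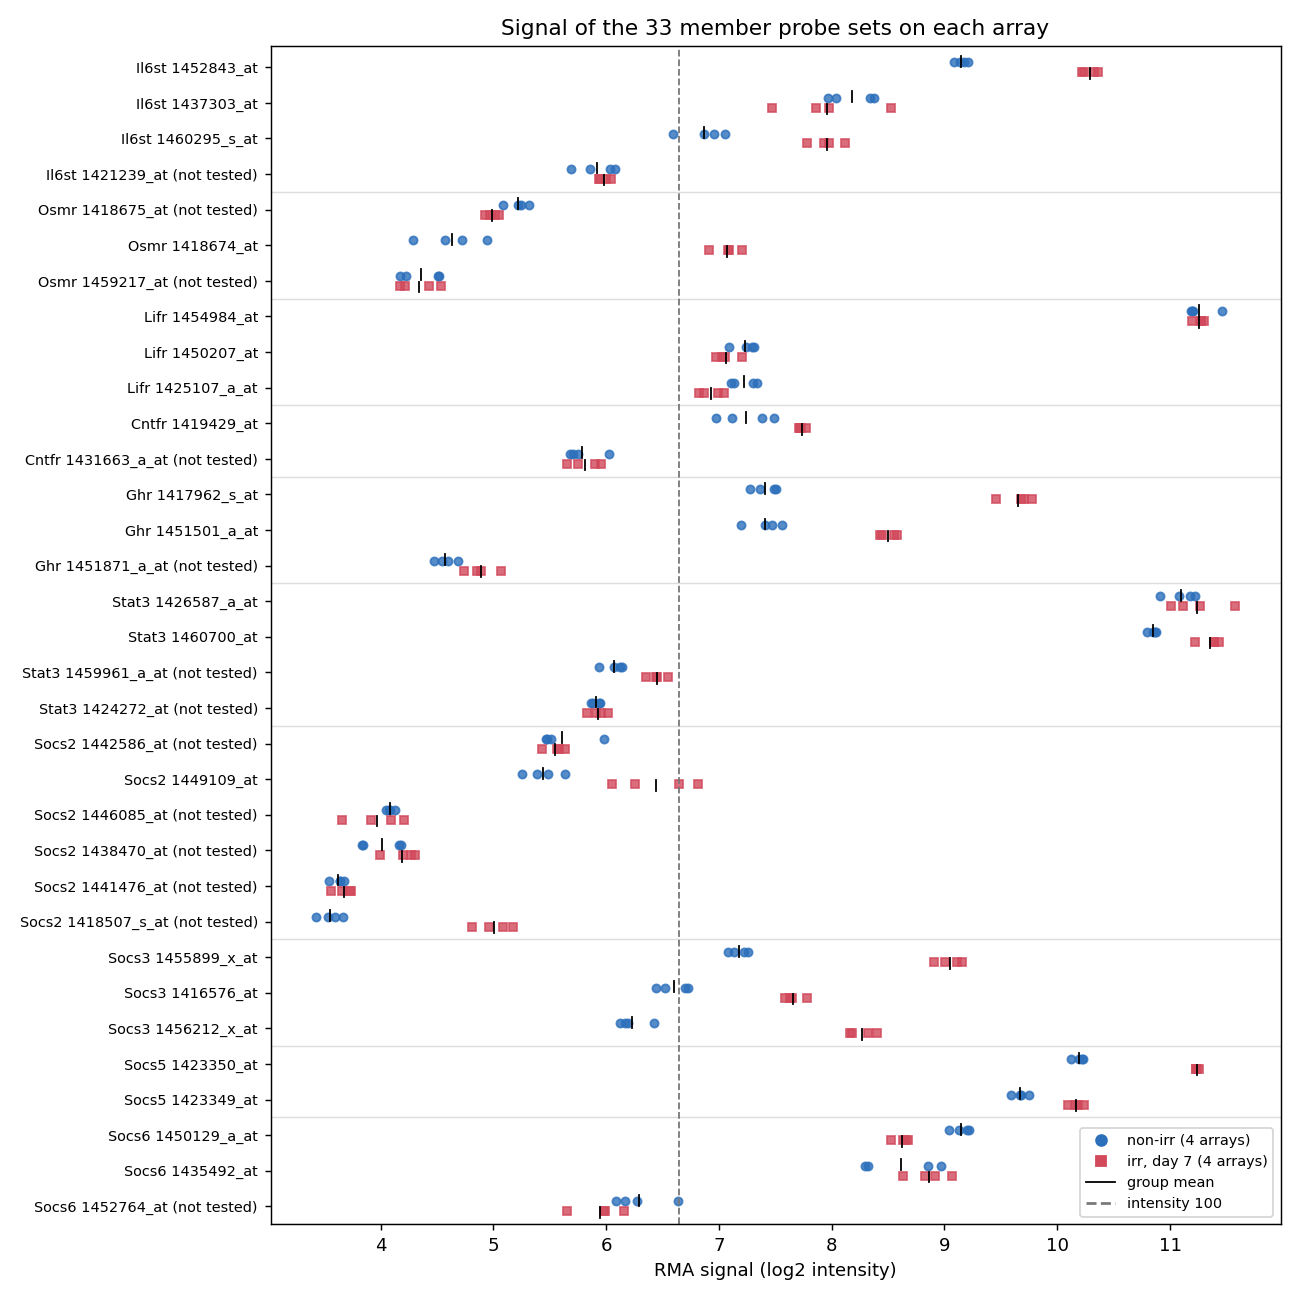
Each row is 1 of the 33 probe sets, grouped by gene, and the horizontal axis is the RMA signal in log2 intensity. Circles are the 4 non-irr arrays, squares the 4 irr arrays, short black lines the group means and the dashed line an intensity of 100. Among the probe sets tested, 13 have all irr arrays above all non-irr arrays, 2 have them all below and 5 overlap. The 13 include the 3 that passed the filter through the irr arrays alone. Such separation was not counted over the whole array, where 75.1% of the probe sets tested were called.

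Over all probe sets, correlations were 0.996 to 0.998 within a group and 0.972 to 0.976 between a non-irr and an irr array. Markers of neural stem cells were present in both groups (11 of 12 genes of that list were measured, 4 of them higher and 4 lower in irr NSCs), and Pou5f1 and Nanog, which mark embryonic stem cells, lay below an intensity of 100 on all arrays. Of the pluripotency list, 3 of 7 genes were measured and 1 was higher. In the astrocyte list, 9 of 11 genes were called higher and 2 lower (Aldoc and, on 1426508_at, Gfap). Of all genes tested by their brightest probe set, 40.2% were called higher and 37.1% lower. Aqp4 passed the filter through the irr arrays alone, and without it 8 of 10 were higher. The summed intensity of the list was 22123 to 24093 on the non-irr and 46546 to 50631 on the irr arrays. Apoe, part of this sum, went from a log2 mean of 9.29 to 13.94. Of 9 mesenchymal markers 5 were measured, 4 of them higher and 1 lower, with sums of 2489 to 2643 and 5807 to 6317. Dcn and Lum passed the filter through the irr arrays alone, and without them 2 of 3 were higher and 1 lower. Of 10 markers of microglia and macrophages 3 were measured and 2 were higher, with sums of 545 to 611 and 797 to 883, the higher ones being Cd68 (2.64, below 100 on all non-irr arrays, limma, adjusted p = 9.4e-09) and P2ry12 (0.52, limma, adjusted p = 3.1e-04), while Aif1, Ptprc, Itgam and Cx3cr1 lay below 100 on all arrays. Cd68 passed the filter through the irr arrays alone, and without it 1 of 2 was higher. Endothelial cells (1 of 7 measured, 1 lower), neurons (7 of 9 measured, 3 higher, 3 lower) and oligodendrocytes (4 of 8 measured, 0 called) made up the remaining lists. Syt1 of the neuronal list passed the filter through the irr arrays alone, and without it 2 of 6 were higher and 3 lower. The part of these marker lists in the changes below was not tested, and in RNA of whole cultures a change in the share of a cell type cannot be told apart from a change of RNA per cell.

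The gp130 chain rose in irr NSCs by 2 of its 3 tested probe sets. Its brightest probe set, Il6st 1452843_at, read 9.08, 9.14, 9.17 and 9.21 (log2 signal) on the non-irr arrays and 10.22, 10.24, 10.33 and 10.36 on the irr arrays. All irr arrays lay above all non-irr arrays, and the rise was 1.14 ± 0.05 on the log2 scale (limma, mean ± SE, n = 4 against 4, adjusted p = 3.4e-08), or 2.20-fold. Il6st 1460295_s_at, a dimmer probe set, gave 6.60, 6.86, 6.96 and 7.06 on the non-irr and 7.78, 7.93, 7.98 and 8.12 on the irr arrays, again without overlap, a rise of 1.09 ± 0.10 (limma, adjusted p = 6.6e-06). The difference between the changes of these probe sets was 0.05 on the log2 scale, with a 95% interval from -0.13 to 0.23.

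The remaining tested probe set of the gene did not follow. Il6st 1437303_at read 8.34, 8.37, 7.97 and 8.04 on the non-irr arrays and 8.53, 7.98, 7.86 and 7.47 on the irr arrays. The groups overlapped, irr replicate 1 being the highest and irr replicate 4 the lowest of all 8 arrays, and the difference of -0.22 ± 0.20 did not pass (limma, adjusted p = 0.33, 95% interval -0.66 to 0.22). To test whether probe sets of 1 gene changed unequally, the brightest was set against each other tested probe set of its gene, array by array, for all 8341 such pairs on the array. The change of 1452843_at exceeded that of 1437303_at by 1.36 ± 0.23 (limma on the pair difference, adjusted p = 0.0012). Without irr replicate 1, Il6st 1437303_at was called lower, at -0.41 (limma, adjusted p = 0.026). The last probe set of the gene, Il6st 1421239_at, stayed below an intensity of 100 on all arrays and was not tested (5.92 ± 0.18 non-irr, 5.98 ± 0.05 irr, mean ± SD).

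Osmr, which encodes the oncostatin M receptor chain, went from signals under the filter to signals over it on 1 of its probe sets. On 1418674_at the non-irr arrays read 4.57, 4.29, 4.94 and 4.72, all far below an intensity of 100, and the irr arrays 7.20, 6.91, 7.08 and 7.09, all above it. The log2 difference was 2.44 ± 0.13 (limma, adjusted p = 8.1e-08), a size that depends on the dim non-irr signals. Set against an intensity of 100 in place of the dim non-irr signal, the irr mean was at least 1.34-fold higher, which is the part of the rise that does not rest on signals under the filter. The other probe sets of the gene read no such rise: Osmr 1418675_at was 5.22 ± 0.10 in non-irr and 4.99 ± 0.05 in irr NSCs, and Osmr 1459217_at was 4.36 ± 0.18 and 4.34 ± 0.17, both under the filter on every array and not tested.

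Lifr, the receptor chain for LIF, was bright in both groups and did not rise. Its brightest probe set, 1454984_at, read 11.19, 11.46, 11.18 and 11.21 on the non-irr arrays and 11.27, 11.28, 11.30 and 11.20 on the irr arrays. Apart from non-irr replicate 2 the arrays lay within a narrow band, and the 95% interval of the log2 difference ran from -0.15 to 0.15 (limma, adjusted p = 0.99). The dimmer probe sets were called lower by small amounts: Lifr 1425107_a_at read 7.13, 7.30, 7.34 and 7.11 and then 6.82, 6.87, 6.99 and 7.04, a fall without overlap of the groups (-0.29 ± 0.07, limma, adjusted p = 0.0048), which lost its call with arrays centred on reference genes (-0.17, limma, adjusted p = 0.074). Lifr 1450207_at read 7.31, 7.09, 7.24 and 7.29 and then 7.03, 6.97, 7.05 and 7.20, with overlap, at -0.17 ± 0.07 (limma, adjusted p = 0.042). The latter call was lost when any of the non-irr replicates 1, 3 and 4 or the irr replicates 1, 2 and 3 was left out, with adjusted p between 0.075 and 0.11 by limma, and in 12 of 20 alternative settings in all. The change of 1454984_at was above that of 1425107_a_at by 0.29 ± 0.09 (limma on the pair difference, adjusted p = 0.022), but at an adjusted p of 0.060 by limma without irr replicate 2. Osmr and Lifr are neighbours in the RefSeq annotation of GRCm38.p6, with 0 protein-coding genes between them.

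Cntfr, the CNTF binding subunit, rose by a smaller amount. The non-irr arrays spread over 7.11, 7.38, 7.49 and 6.98 on Cntfr 1419429_at, whereas the irr arrays lay close together at 7.71, 7.73, 7.72 and 7.77. The groups did not overlap, and the rise was 0.49 ± 0.10 on the log2 scale (limma, adjusted p = 0.0015), or 1.41-fold. Cntfr 1431663_a_at was under the filter on all arrays (5.79 ± 0.16 and 5.82 ± 0.14).

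Ghr, the growth hormone receptor, is no gp130 partner but belongs to the same receptor class. Ghr 1417962_s_at read 7.28, 7.51, 7.49 and 7.36 in non-irr and 9.68, 9.78, 9.46 and 9.70 in irr NSCs, so that every irr array lay far above every non-irr array. The rise was 2.24 ± 0.08 (limma, adjusted p = 7.3e-09), or 4.74-fold, and 1.20% of all probe sets tested rose more. Ghr 1451501_a_at went from 7.41, 7.56, 7.47 and 7.19 to 8.57, 8.43, 8.55 and 8.44, a rise of 1.09 ± 0.08 (limma, adjusted p = 8.4e-07). Both were higher, by unequal amounts: the former rose by 1.15 ± 0.10 more on the log2 scale (limma on the pair difference, adjusted p = 2.9e-05). Ghr 1451871_a_at stayed under the filter (4.57 ± 0.09 and 4.89 ± 0.13).

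**Figure D2:**
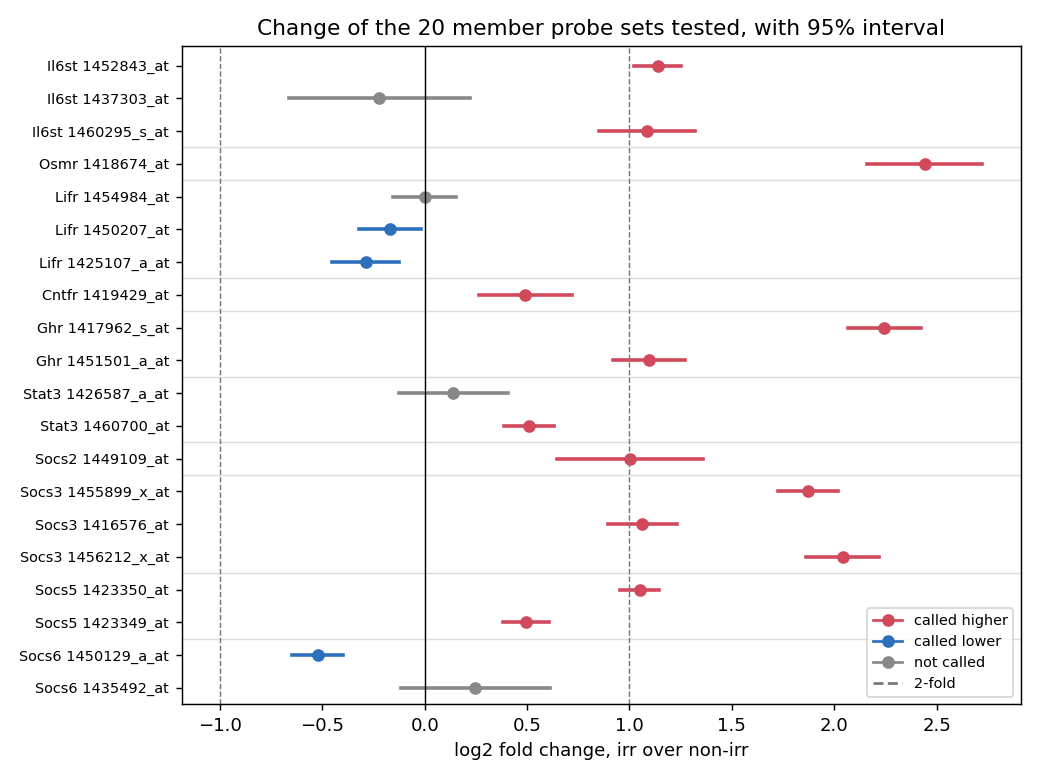
Points are log2 fold changes of irr over non-irr NSCs from limma for the 20 probe sets tested, with their 95% intervals as bars. Dashed lines mark a 2-fold change. The change of Osmr 1418674_at (2.44, from non-irr signals below an intensity of 100) lies furthest to the right and that of Socs6 1450129_a_at (-0.52) furthest to the left, and probe sets of Il6st and of Socs6 lie apart.

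Stat3 transcripts were bright in both groups, and 1 of the 2 tested probe sets was called higher. Stat3 1460700_at read 10.87, 10.85, 10.80 and 10.88 on the non-irr and 11.22, 11.39, 11.43 and 11.39 on the irr arrays, without overlap, and rose by 0.51 ± 0.05 on the log2 scale (limma, adjusted p = 1.6e-05), or 1.42-fold. On Stat3 1426587_a_at the non-irr arrays read 11.18, 11.22, 10.91 and 11.08 and the irr arrays 11.57, 11.26, 11.01 and 11.12. These overlapped, with irr replicate 1 well above the rest, and the difference of 0.14 ± 0.12 did not pass (limma, adjusted p = 0.30, 95% interval -0.13 to 0.41). The changes of both probe sets differed by -0.37 ± 0.15, which missed the threshold (limma on the pair difference, adjusted p = 0.067) and passed it without irr replicate 1 (-0.53, limma, adjusted p = 0.0012). Leaving out irr replicates 3 and 4 together, 1426587_a_at was called higher at 0.32 (limma, adjusted p = 0.036). Under the filter, Stat3 1459961_a_at read 6.07 ± 0.09 and 6.45 ± 0.08, and Stat3 1424272_at read 5.91 ± 0.04 and 5.93 ± 0.08.

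Socs3, the inhibitor that binds gp130 and JAK, rose on all its 3 probe sets. Of these, 1456212_x_at passed the filter through the irr arrays alone, which bound its direction. Socs3 1455899_x_at read 7.25, 7.13, 7.23 and 7.08 in non-irr and 9.11, 9.00, 9.16 and 8.91 in irr NSCs, a rise of 1.87 ± 0.07 on the log2 scale (limma, adjusted p = 6.7e-09), or 3.66-fold. Socs3 1456212_x_at read 6.42, 6.19, 6.13 and 6.16, all below an intensity of 100, and then 8.17, 8.18, 8.32 and 8.40, a log2 difference of 2.04 ± 0.08 (limma, adjusted p = 1.2e-08) and at least 3.08-fold over that intensity. Socs3 1416576_at rose less, from 6.73, 6.44, 6.70 and 6.52 to 7.63, 7.58, 7.65 and 7.78, by 1.06 ± 0.07 (limma, adjusted p = 7.5e-07). In none of these did the groups overlap. The change of 1455899_x_at exceeded that of 1416576_at by 0.81 ± 0.09 (limma on the pair difference, adjusted p = 9.1e-05), while it differed from that of 1456212_x_at by -0.17, with a 95% interval from -0.39 to 0.05. The suffix x marks probe sets in which some oligonucleotides can also match other transcripts, and the suffix s those that match several transcripts.

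STAT dimers bind palindromes of the form TTCNNNGAA, which reads the same on both strands. In the RefSeq promoter windows of GRCm38.p6, from 250 bases before to 50 bases after an annotated start, 2726 of 32851 windows (8.3%) held this motif. For 7 of the 10 genes a window was listed, 14 windows in all, and 1 of them, that of Socs3, held a match, 154 to 146 bases before the start. Of the 82 windows of the other pathway genes named below, 13 held a match (15.85%), among them Cish, a SOCS family gene with a pair of matches, and Gfap. Matches stood in windows of 11 of these pathway genes, including the STAT3 targets Bcl6, Icam1, Irf1 and Zfp36. Of these targets, Irf1 and Zfp36 were called higher, Bcl6 was not called (-0.11 ± 0.06, limma, adjusted p = 0.12) and Icam1 was under the filter. Gfap, also in the list of STAT3 targets, was called lower on its brightest probe set (-0.18 ± 0.06, limma, adjusted p = 0.019). The other Gfap probe sets were under the filter and read higher in irr NSCs. The pathway lists include genes picked as known STAT3 targets, so their share of windows with a match is not that of an unselected set. The stretches of Socs3, Cish and Gfap are shown as examples from a member gene, another feedback gene and the astrocyte filament gene. They are given 5′ to 3′ on the strand of the gene with the motif in capitals: Socs3 at chr11:117969502-117969531 (minus strand), Cish at chr9:107296649-107296678 (plus strand) and Gfap at chr11:102897193-102897222 (minus strand).
Socs3: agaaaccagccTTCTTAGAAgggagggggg
Cish: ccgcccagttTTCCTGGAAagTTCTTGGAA
Gfap: aggctattcaatgggggtgcTTCCAGGAAg
A match is a run of letters in this window. The arrays measured no binding to it.

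Socs2, the inhibitor of growth hormone signaling, was dim throughout. Of its 6 probe sets only 1449109_at passed the filter, through a single irr array: the irr arrays read 6.64, 6.05, 6.26 and 6.82, and the last alone lay over an intensity of 100. The non-irr arrays read 5.25, 5.38, 5.48 and 5.64, below every irr array, and the log2 difference was 1.00 ± 0.16 (limma, adjusted p = 2.6e-04). With single arrays left out and the probe set kept in the test, it ran from 0.88 to 1.13 and kept its call, but without irr replicate 4 it would not pass the filter and would not be tested. Thus whether it was tested and reached 2-fold depended on the arrays used, and with the RNA control gap described below as a covariate it was 0.57 (limma, adjusted p = 0.036). Because both group means lay under an intensity of 100, no fold is given. Socs2 1418507_s_at, not tested, read 3.59, 3.53, 3.43 and 3.66 in non-irr and 4.81, 5.17, 4.96 and 5.09 in irr NSCs, which did not overlap. The other 4 probe sets of the gene, also under the filter, differed by -0.11 to 0.18 between the groups, with overlap in each.

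Socs5, a SOCS family member with a long N-terminal region, was bright and rose on both probe sets. Socs5 1423350_at read 10.22, 10.19, 10.12 and 10.23 in non-irr and 11.24, 11.23, 11.25 and 11.23 in irr NSCs, and rose by 1.05 ± 0.04 on the log2 scale (limma, adjusted p = 1.5e-08), or 2.07-fold. The 4 irr arrays of this probe set agreed within an SD of 0.01. Socs5 1423349_at went from 9.75, 9.68, 9.59 and 9.67 to 10.18, 10.15, 10.09 and 10.24, a rise of 0.49 ± 0.05 (limma, adjusted p = 1.2e-05). Neither overlapped between the groups, and the former rose by 0.56 ± 0.05 more (limma on the pair difference, adjusted p = 3.6e-05).

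Socs6, the SOCS member most like Socs7, was the only SOCS gene among the 10 with a probe set called lower. Socs6 1450129_a_at read 9.04, 9.20, 9.13 and 9.21 in non-irr and 8.68, 8.66, 8.52 and 8.63 in irr NSCs, without overlap, a fall of -0.52 ± 0.06 (limma, adjusted p = 1.6e-05). Socs6 1435492_at did not fall: the non-irr arrays split into 8.30 and 8.32 against 8.86 and 8.97, the irr arrays read 8.92, 9.06, 8.64 and 8.82, and the difference of 0.25 ± 0.16 did not pass (limma, adjusted p = 0.19). The changes of these probe sets differed by -0.77 ± 0.15 (limma on the pair difference, adjusted p = 0.0028). Socs6 1452764_at was under the filter, at 6.29 ± 0.24 and 5.95 ± 0.21.

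Probe sets of 1 gene thus changed unequally in 6 of the 10 pairs formed by these genes, and 52.1% of all pairs on the array did so. Of the 7 genes with at least 2 tested probe sets, 4 (Il6st, Lifr, Stat3 and Socs6) had 1 called and 1 not called, as did 35.8% of such genes on the array, and 0 were called in both directions, against 9.80%.

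The RNA controls of the array moved with irradiation too. Some control transcripts are read near both ends, and the gap between the 3′ and the 5′ signal widens when the labelled RNA is shorter. For the transferrin receptor the gap was 0.21, 0.21, 0.31 and 0.65 (log2) on non-irr replicates 1 to 4 and 0.73, 0.78, 0.69 and 1.20 on irr replicates 1 to 4. The irr arrays had the wider gaps, with means of 0.35 ± 0.21 and 0.85 ± 0.24 (SD, n = 4 each, two-sided exact permutation test over arrays, p = 0.029, adjusted p = 0.043 over 3 controls), and a p of 0.029 is as low as 4 against 4 arrays can go. The actin gap was 0.26 ± 0.03 and 0.51 ± 0.07 (exact permutation test, p = 0.029, adjusted p = 0.043), and that of Gapdh -0.08 ± 0.04 and -0.06 ± 0.03 (exact permutation test, p = 0.71).

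Within the irr group, replicate 4 had both the widest transferrin receptor gap and the lowest signal of Il6st 1437303_at (7.47), whereas within the non-irr group replicate 4 had the widest gap and replicate 3 the lowest signal (7.97, against 8.04 for replicate 4). Jak1, the main kinase of gp130, showed a like spread on 1 of its probe sets: Jak1 1433804_at read 8.41, 8.19, 8.29 and 7.38 on non-irr replicates 1 to 4 and 8.90, 7.75, 7.78 and 6.99 on irr replicates 1 to 4, lowest in each group on the array with the widest gap. Ptpn11, which encodes the phosphatase SHP2, did so on 1427699_a_at, with 9.57, 9.27, 9.10 and 8.73 and then 9.32, 8.69, 8.46 and 7.91. Both probe sets were picked after their values were seen. Their brightest probe sets spread less: the SDs of Jak1 1433805_at were 0.11 and 0.12, against 0.47 and 0.79 for 1433804_at, and those of Ptpn11 1451225_at were 0.02 and 0.03, against 0.35 and 0.58 for 1427699_a_at. The part of RNA length in the disagreement between probe sets was not tested. With the transferrin receptor gap as a covariate, 13 of the 20 probe sets were still called higher, Il6st 1452843_at rose by 1.04 (limma, adjusted p = 8.8e-06) and Il6st 1437303_at was at 0.30 (limma, adjusted p = 0.32). The gaps of the groups did not overlap, so gap and group cannot be told apart in that fit.

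**Figure D3:**
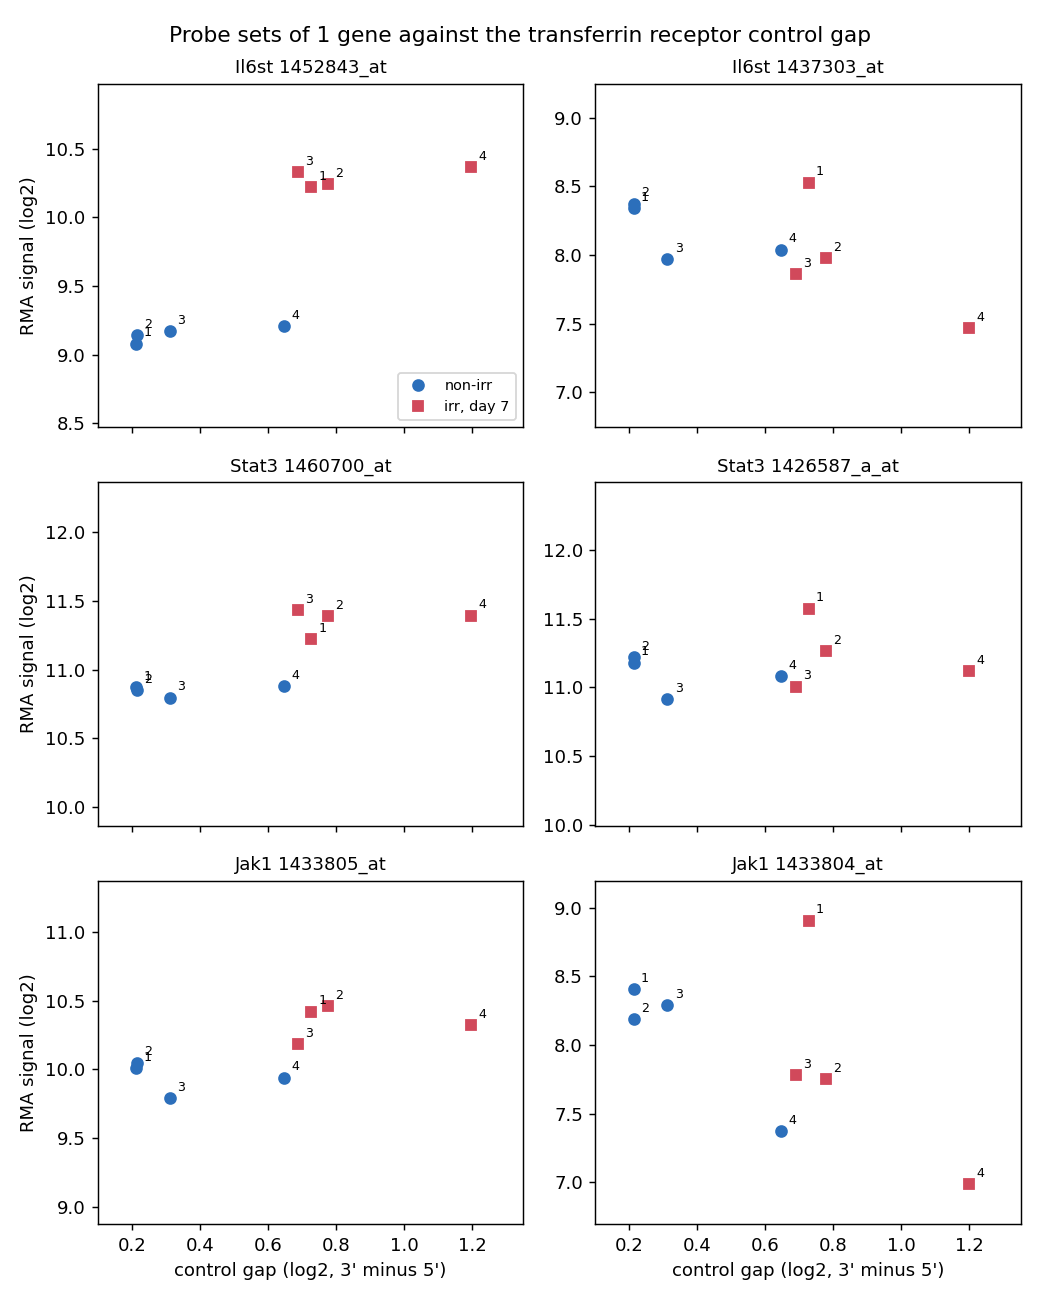
The horizontal axis is the gap between the 3′ and 5′ transferrin receptor controls and the vertical axis the RMA signal, both on the log2 scale. Each point is 1 array with its replicate number, circles for non-irr and squares for irr. The left panels show probe sets that rose in irr NSCs, and the right panels other probe sets of the same genes, among which irr replicate 4 reads lowest for Il6st 1437303_at and Jak1 1433804_at.

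The ligands of these receptors were little measured. Of 11 genes of IL-6-type cytokines and their subunits, 3 passed the filter, 4 did not (Il6, Il11, Osm and Il31) and 4 had no probe set with that symbol alone. Ctf1, the gene of cardiotrophin 1, read 8.52 ± 0.07 in non-irr and 8.95 ± 0.09 in irr NSCs (SD, n = 4) and rose by 0.44 ± 0.06 (limma, adjusted p = 8.3e-05). Lif was near the filter, with 6.56, 6.70, 6.51 and 6.75 and then 6.64, 6.92, 6.78 and 6.78, and its difference of 0.15 ± 0.07 did not pass (limma, adjusted p = 0.095). Clcf1 differed by -0.12 ± 0.06 (limma, adjusted p = 0.11).

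Counted by the brightest probe set of each gene, 40.2% of all 11372 genes tested were called higher and 37.1% lower, and of 54 other pathway genes measured 35 were called higher and 4 lower, 4 of the 35 having passed the filter through the irr arrays alone. Of 7 other cytokine receptors measured, 5 were called higher, all of class II, whereas gp130 and Ghr are of class I. The largest changes were those of the interferon gamma receptor chain Ifngr2 (0.99 ± 0.06), the shared chain Il10rb (0.82 ± 0.05) and Ifngr1 (0.78 ± 0.06, largest limma adjusted p of the 3, 1.4e-06). The class I receptors Epor and Il6ra were not called by their brightest probe sets, Epor at 0.07 ± 0.05 (limma, adjusted p = 0.19). For Il6ra, the binding chain for IL-6, named after its values were seen, the brightest probe set 1422270_a_at differed by 0.07 ± 0.07 (limma, adjusted p = 0.39). Il6ra 1452416_at, below 100 on all non-irr arrays, differed by 1.23 ± 0.14 (limma, adjusted p = 2.1e-05) and was at least 1.36-fold higher. It passed the filter through the irr arrays alone, which bound its direction. Of the JAK kinases, by their brightest probe sets, Jak1 rose by 0.40 ± 0.08 (limma, adjusted p = 9.3e-04) and Jak2 by 0.12 ± 0.05 (limma, adjusted p = 0.039), Tyk2 was at -0.02 ± 0.06 and Jak3 was under the filter. Jak2 1421065_at was not called (-0.12 ± 0.07, limma, adjusted p = 0.16). Jak1 1433803_at also rose (0.55 ± 0.07, limma, adjusted p = 5.2e-05), while Jak1 1433804_at was not called (-0.21 ± 0.37, limma, adjusted p = 0.62).

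Of the other STAT genes 3 of 4 measured were called higher, but Stat6 and Stat5a passed the filter through the irr arrays alone, which bound their direction. Stat6, the factor of IL-4 signaling, read 5.39, 5.67, 5.81 and 5.60 in non-irr and 6.96, 6.97, 7.20 and 7.14 in irr NSCs, a log2 difference of 1.45 ± 0.09 (limma, adjusted p = 3.6e-07) and at least 1.34-fold over an intensity of 100. Stat5a read 5.87, 6.12, 6.33 and 6.33 and then 7.66, 7.26, 7.60 and 7.50, a difference of 1.34 ± 0.12 (limma, adjusted p = 3.9e-06) and at least 1.81-fold. Both crossed that intensity on every irr array and on no non-irr array. Stat5b rose by 0.53 ± 0.06 (limma, adjusted p = 1.3e-05), Stat2 differed by -0.17 ± 0.07 (limma, adjusted p = 0.058) and Stat4 was under the filter. A dimmer probe set of Stat5b, 1422102_a_at, was not called (-0.19 ± 0.08, limma, adjusted p = 0.052). Of the growth hormone axis, which shares Jak2, Stat5a, Stat5b and Cish with other lists, 5 of 6 measured genes were higher, among them Igfbp3, a carrier of insulin-like growth factors (0.47 ± 0.04, limma, adjusted p = 5.4e-06), and Igf1 was under the filter.

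By the brightest probe set, the other 3 SOCS genes measured were called higher, as were 40.2% of all genes tested. Socs7 rose by 0.45 ± 0.05, Cish by 0.44 ± 0.07 and Socs4 by 0.35 ± 0.09 (largest limma adjusted p of the 3, 0.0072), and Socs1 was under the filter. A dimmer probe set of Socs4, 1421273_at, was called lower (-0.22 ± 0.08, limma, adjusted p = 0.037). Among 10 inhibitors of other kinds 3 were higher, the STAT inhibitors Pias2 (0.61 ± 0.07) and Pias3 (0.42 ± 0.05) and the phosphatase gene Ptpn11 (0.26 ± 0.04, largest limma adjusted p of the 3, 1.8e-04), 1 was lower and 6 were not called. Pias2 1426456_a_at, another probe set of the gene, was called lower (-0.24 ± 0.06, limma, adjusted p = 0.0028). Of 29 pathway genes with at least 2 tested probe sets, 4 were called in both directions: Nampt, Pias1, Pias2 and Socs4. Among all such genes on the array, 9.80% were called in both directions.

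Of 22 measured genes known as STAT3 targets, 17 were higher, 3 were lower and 2 were not called, with a median log2 fold change of 0.67. Lcn2 and Serpina3n entered this list through the irr arrays alone, and without them 15 of 20 were higher, with a median of 0.50. Lcn2, which encodes the secreted lipocalin 2, read 4.23, 4.21, 4.47 and 4.56 in non-irr and 7.97, 7.78, 8.08 and 8.10 in irr NSCs, a difference of 3.62 ± 0.10 (limma, adjusted p = 1.4e-09) and at least 2.53-fold over an intensity of 100. Serpina3n, a secreted protease inhibitor of reactive astrocytes, differed by 2.34 ± 0.12 (limma, adjusted p = 7.3e-08), at least 3.16-fold. The largest fall was that of Birc5, the mitotic gene of survivin, at -2.36 ± 0.05 (limma, adjusted p = 3.3e-10). Gfap, the astrocyte filament gene, was near or under the filter: 1426508_at read 6.90, 6.85, 6.64 and 6.80 and then 6.56, 6.61, 6.64 and 6.64, with overlap (-0.18 ± 0.06, limma, adjusted p = 0.019). The other Gfap probe sets, below 100 on all arrays and not tested, read higher in irr NSCs, 1426509_s_at by 0.88 and 1440142_s_at by 0.57. Many of these targets also answer to other factors, and arrays do not read the phosphorylation of STAT3.

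**Figure D4:**
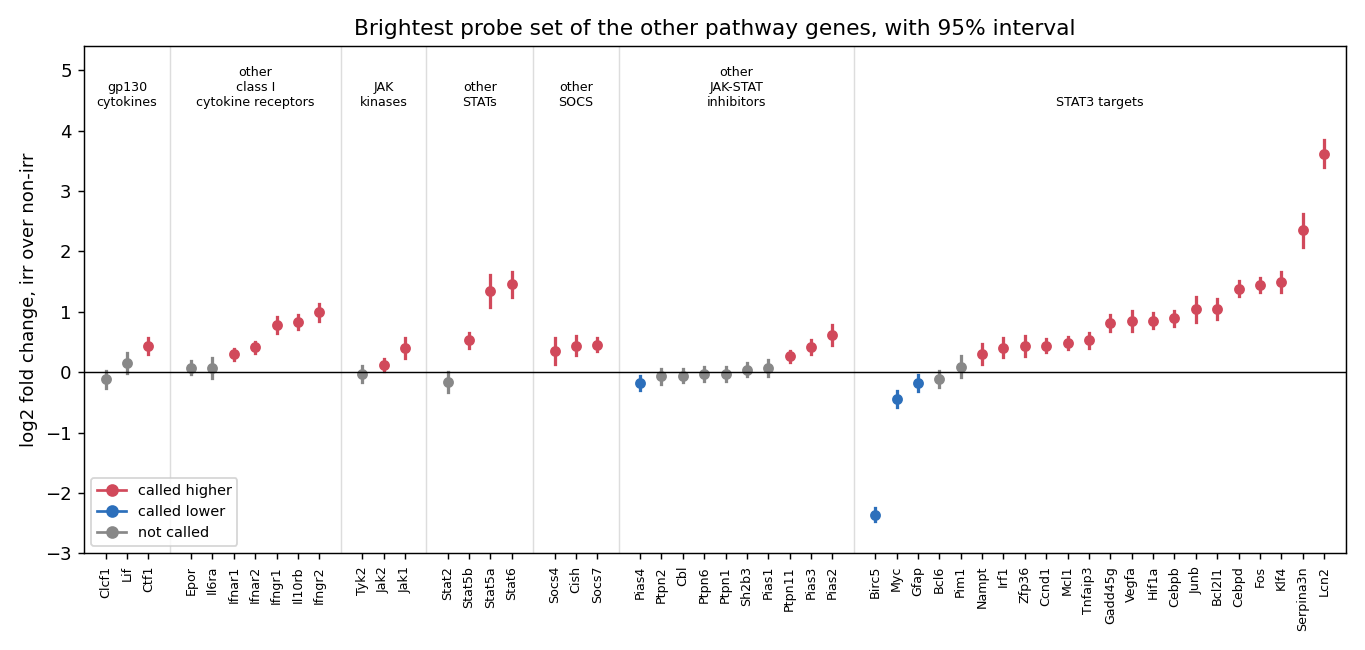
Each point is the log2 fold change of irr over non-irr NSCs, with its 95% interval, of the brightest probe set of a pathway gene other than the 10, ordered by size within its list. Red points were called higher, blue points lower and grey points were not called. The list headed class I cytokine receptors also holds Ifngr1, Ifngr2, Ifnar1, Ifnar2 and Il10rb, which are class II receptors. Among STAT3 targets the values run from -2.36 (Birc5) to 3.62 (Lcn2).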

How the data were processed

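RNA of 4 non-irr and 4 irr NSC cultures was read on Affymetrix arrays. The authors read intensities with GCOS and normalized them with RMA (versions not given in the sources used here), and the deposited values are log2 signals for 45101 probe sets. Detection calls were not used here. RMA sets all arrays to 1 distribution and compresses dim signals, so small folds of dim probe sets are understated. Genes were named from the platform annotation (34958 probe sets with 1 symbol, 932 with several, 9211 with none). No genome build is given for the array, so the only coordinates printed are those of RefSeq promoter windows on GRCm38.p6. After the methods, those over an intensity of 100 on at least 1 array (array controls excluded) were tested with limma 3.58.1 in R 4.3.3 (two-sided, Benjamini-Hochberg). Pairs of probe sets were tested likewise on their difference. Scripts were tested on simulated data. The number of arrays limits the precision. Signals of different probe sets are not compared as levels.

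The genes and all lists (cytokines, receptors, JAK kinases, STATs, SOCS, other inhibitors, STAT3 targets, growth hormone axis and cell type markers) were chosen with earlier results of these data known. Named were all probe sets of the 10 genes, the cytokines, JAK kinases and STATs, Gfap, and of every other pathway list the 3 called genes with the largest change. Alternatives covered the filter, the scaling, the model, the replicate number as a block, left-out arrays, a 1.5-fold change as the null, probe sets averaged within a gene and, chosen after seeing the data, the control gap as a covariate.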

Additional observations from a re-analysis of the deposited data

Results flagged for a closer look

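In 7 of 174 groups of 4 arrays, 1 array lay far from the other 3, by the gap to its nearest neighbour as a share of the whole range (Dixon's criterion), and chance gives about 1 in 20. Among the 10 genes this was non-irr replicate 2 of Lifr 1454984_at (11.46 against 11.18 to 11.21, share 0.924) and non-irr replicate 4 of Socs2 1442586_at (5.98 against 5.47 to 5.51, share 0.920). Among the other pathway genes it was irr replicate 1 of Epor (7.95 against 7.81 to 7.82, share 0.935), irr replicate 3 of Ifngr2 (8.88 against 9.01 to 9.03, share 0.893) and non-irr replicate 1 of Ifnar1 (9.55 against 9.58 to 9.59, share 0.863). It was also non-irr replicate 3 of Cbl (9.54 against 9.66 to 9.67, share 0.943) and non-irr replicate 2 of Pim1 (6.87 against 7.02 in the others, share 0.978).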

How the results depend on the processing

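Over 21 alternatives, 393 of 415 values of single probe sets of the 10 genes kept their direction where called and their side of the threshold, 20 lost a call, 2 gained one and 0 reversed. The 13 probe sets called higher stayed 13 without any single array, those called lower numbered 2 to 3, those called at 2-fold or more 8 to 10, and the pairs that differed 5 to 7. Called lower were 1 with the filter at an intensity of 200, 1 with arrays centred on 7 reference genes and 0 in the test against a 1.5-fold change. The filter at 200 tests fewer probe sets, and centring on reference genes moved the median change of all probe sets to 0.11. Without a filter 15 pairs differed, out of 23 in place of 10. With probe sets averaged within a gene, 7 other pathway genes were called lower in place of 4, and the cause was not tested. Whether replicate numbers pair the arrays could not be settled: deviations of same-numbered arrays correlated at 0.043, 0.376, -0.207 and 0.509. Arrays numbered 2 and 4 correlated best with their own number, and those numbered 1 and 3 did not. With the replicate block 13 probe sets were higher, 3 lower, 10 at 2-fold or more, and 7 pairs differed, the pair of Stat3 being the added one (-0.37, limma, adjusted p = 0.025). Signals under an intensity of 100 limit what can be said of Osmr, Socs2 and the cytokines.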
